A study of Rattus norvegicus with 10 samples.

Results

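miR-877 and miR-1224 are mirtron miRNAs of the rat, and each has 1 row among the 765 mature miRNAs of the table. They were found by mature name, so both members are accounted for, and both passed the filter of a mean of at least 1 RPM (reads in a library scaled to 1000000 in all) that 474 miRNAs passed. Their names were put together with the comparison of 2-VO and sham libraries already known, so their levels in the 2 groups are given as a description with no test. Hippocampal RNA of Wistar rats, 10 weeks old, was sequenced in 5 libraries of the 2-VO group (replicates 3, 5, 6, 7 and 8, with both common carotid arteries occluded) and 5 libraries of the sham-operated group (replicates 1 to 5). The 2-VO operation models chronic cerebral hypoperfusion, and how long after the operation the tissue was taken is not stated in the labels. The label for the occlusion protocol stands on all 10 samples, so the groups follow the treatment label. No allele or agent beyond the operation is named, and nothing in the labels ties a library to a single animal, so the spread between libraries may be technical.

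A mirtron is a short intron that is itself the precursor of a miRNA. After splicing and debranching, the intron folds into a hairpin and goes to Dicer without the cut by the Drosha complex that other precursors need. The ends of such a hairpin are therefore the splice sites of the intron, which start with GU and end with AG. miR-877 is known from an intron of the ABCF1 gene, whose protein acts in the initiation of translation, and miR-1224 from an intron of VWA5B2.

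The mature sequences are shown first because the seed, bases 2 to 8 in capitals, sets which transcripts a miRNA can pair with (RefSeq, GRCr8, both 5′ to 3′). miR-877 lies at chr20:2816284-2816303 on the plus strand and miR-1224 at chr11:93811355-93811375 on the minus strand.
miR-877: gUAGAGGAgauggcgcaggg
miR-1224: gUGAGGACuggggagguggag
The 2 seeds differ, and of the 689 other rows with a RefSeq sequence, 0 shared bases 2 to 8 or bases 2 to 7 with either.

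The hairpins are shown for their ends, with the first 2 and last 2 bases in capitals. They lie at chr20:2816284-2816368 (plus strand) and chr11:93811291-93811375 (minus strand), within the spans of Abcf1 and Vwa5b2 in the RefSeq annotation of GRCr8. The exons of these genes were not used here, so the intron is background and not a result.
miR-877 hairpin: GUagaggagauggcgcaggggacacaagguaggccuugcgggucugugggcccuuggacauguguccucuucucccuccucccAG
miR-1224 hairpin: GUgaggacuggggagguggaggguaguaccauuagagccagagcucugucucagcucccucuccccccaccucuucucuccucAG
Both hairpins are 85 bases long, and in both the mature miRNA begins at base 1, on the GU. Among 419 rat hairpins in the RefSeq table, 37 (8.83%) start with GU, 27 (6.44%) end with AG, and 4 (0.955%) do both, read on the transcribed strand only. The other 2 of these 4 are Mir678 and Mir3595, in which the mature miRNA begins at base 56 and base 34. The GC content was 62.4% for the miR-877 hairpin and 60% for that of miR-1224, against a median of 49.4% over all hairpins. The folding energy computed with RNAfold was -35.9 and -41.2 kcal/mol, or -42.2 and -48.5 per 100 bases, against a median of -42.7. The hairpin of miR-877 is thus near the median stability per base, and 97 of the 419 hairpins are more stable per base than that of miR-1224.

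Before the levels, the libraries themselves are compared. The divisors worked out from their RPM values are 13095384 to 13839174 reads in the 2-VO group and 13032805 to 13850400 in the sham group. The rows of the listed miRNAs summed to 69.3% ± 7.24 of the divisor in 2-VO and 71.9% ± 4.47 in sham libraries (SD, n = 5 each). Some rows, such as let-7a-5p and miR-3596a (6079 RPM on average each), may hold the same reads. These sums may then count reads more than once. The neuronal markers miR-9a-5p, miR-124-3p, miR-128-3p and miR-132-3p were listed in every library and summed to 159536 to 205897 RPM in 2-VO and 168259 to 204855 RPM in sham libraries. Most of this sum was miR-9a-5p, at 109628 to 147717 RPM over the 10 libraries, while miR-124-3p added 1690 to 2950 RPM. The library of 2-VO replicate 3 stood apart, with the lowest listed share (60.3%) and with sensory and epithelial markers (miR-200a-3p, miR-200b-3p, miR-182, miR-183-5p) that summed to 75 RPM, against at most 26.0 RPM in the other 2-VO and 21.4 RPM in the sham libraries. All 3 markers of the choroid plexus were listed, and they summed to 387 to 562 RPM in 2-VO and 548 to 949 RPM in sham libraries, most of it miR-204-5p. Each of the 3 was lower in 2-VO, with a median log2 fold change of -0.56 on the log2(RPM + 1) scale. Each of the 4 sensory and epithelial markers was higher in 2-VO (median 0.66, replicate 3 included). None of these markers had a limma adjusted p under 0.05. All 3 blood markers were listed too and summed to 84.1 to 215 RPM in 2-VO and 129.8 to 155 RPM in sham libraries, most of it miR-486. All 4 markers of liver and muscle summed to 23.5 to 38.2 RPM in 2-VO and 28.3 to 34.9 RPM in sham libraries. No marker of these lists was at 0 in every library. The highest choroid plexus sum was that of sham replicate 5, with 657 RPM in the next sham library. The part of these differences in the results on the mirtrons was not tested.

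miR-877 was a rare miRNA, at rank 354 of 765 by its mean of 7.93 RPM. In the 2-VO libraries it stood at 6.20 RPM (85 reads) in replicate 3, 6.95 (91 reads) in replicate 5, 7.37 (97 reads) in replicate 6, 6.54 (87 reads) in replicate 7 and 7.80 RPM (108 reads) in replicate 8. In the sham libraries it stood at 8.23 RPM (114 reads) in replicate 1, 8.53 (115 reads) in replicate 2, 9.30 (122 reads) in replicate 3, 8.95 (121 reads) in replicate 4 and 9.44 RPM (123 reads) in replicate 5. All 5 2-VO libraries lay below the lowest sham library, so the groups did not overlap. Groups lower in 2-VO without overlap were found for 3 of the 474 miRNAs, or 0.633%, and since the members were named with this contrast known nothing is read from that share.

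The mean of miR-877 was 6.97 ± 0.641 RPM in 2-VO and 8.89 ± 0.509 RPM in sham libraries (SD, n = 5 each), a difference of -21.6% and a log2 fold change of -0.31 ± 0.11 (SE) on the log2(RPM + 1) scale. Summed over the libraries this is 468 reads in 2-VO against 595 in sham, a ratio of 0.785 after scaling to the divisors. Reads are not replicates of a group, so no interval is given for this ratio. The 95% Poisson interval ran from 6.4 to 9.42 RPM in 2-VO replicate 8 and from 6.79 to 9.89 RPM in sham replicate 1, the libraries closest to each other across the groups, so these single libraries cannot be told apart by their counts. No molecular identifiers are named for these PCR-amplified reads, and such intervals leave out all error but counting.

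miR-1224 was more abundant, at rank 218 of 765 with a mean of 60.7 RPM. In the 2-VO libraries it stood at 41.6 RPM (570 reads) in replicate 3, 61.3 (803 reads) in replicate 5, 54.0 (710 reads) in replicate 6, 53.9 (718 reads) in replicate 7 and 60.3 RPM (834 reads) in replicate 8. In the sham libraries it stood at 65.8 RPM (912 reads) in replicate 1, 67.6 (912 reads) in replicate 2, 72.8 (955 reads) in replicate 3, 70.8 (957 reads) in replicate 4 and 59.1 RPM (770 reads) in replicate 5. The groups overlapped through sham replicate 5 alone, which lay below 2-VO replicates 5 and 8, while the 4 other sham libraries lay above every 2-VO library.

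The mean of miR-1224 was 54.2 ± 7.86 RPM in 2-VO and 67.2 ± 5.30 RPM in sham libraries (SD, n = 5 each), a difference of -19.4% and a log2 fold change of -0.31 ± 0.12 (SE). The summed reads were 3635 in 2-VO and 4506 in sham libraries, a ratio of 0.805, again given with no interval. The 2-VO mean leaned on replicate 3, which was the lowest of the 10 libraries for both mirtrons. Without it the log2 fold change was -0.22 for miR-1224 and -0.28 for miR-877. In bulk tissue, fewer cells that make a miRNA and less of it per cell cannot be told apart.

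**Figure D1:**
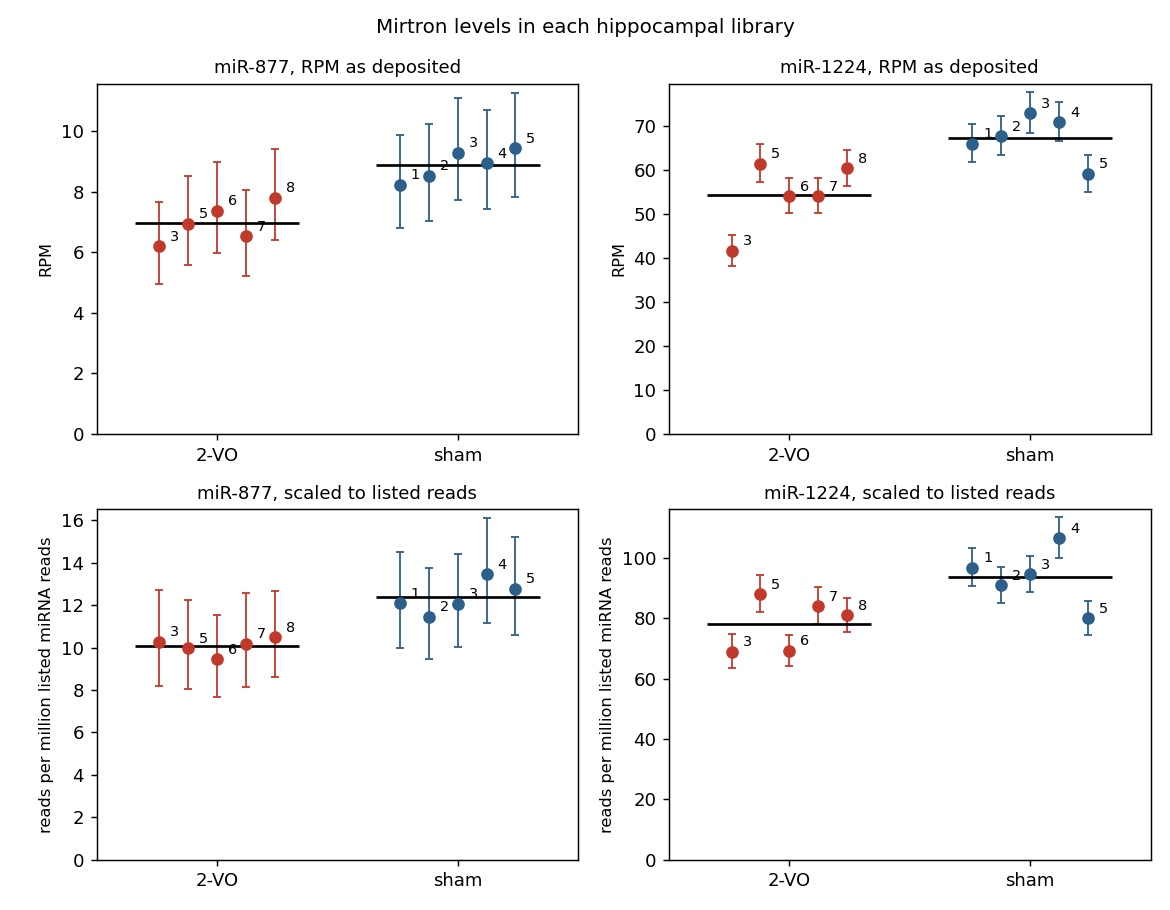
Level of miR-877 (left) and miR-1224 (right) in each library, as RPM (top) and scaled to the listed miRNA reads (bottom), with 2-VO in red and sham in blue. Numbers are replicates, bars are 95% Poisson intervals (counting error only) and lines are group means; the 2-VO and sham points of miR-877 do not overlap in either panel, and those of miR-1224 overlap through sham replicate 5.

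Since the RPM divisor counts reads outside the table, each level was also set against the listed miRNA reads, taken as the sum of all rows. On that scale miR-877 stood at 9.46 to 10.5 (as RPM, but with the listed miRNA reads as the divisor) in 2-VO and 11.5 to 13.5 in sham libraries, and the groups again did not overlap. The means were 10.1 ± 0.392 in 2-VO and 12.4 ± 0.769 in sham libraries (SD, n = 5), and the log2 fold change was -0.27 ± 0.086 (SE). For miR-1224 they were 78.2 ± 8.74 in 2-VO and 93.8 ± 9.64 in sham libraries, with a log2 fold change of -0.26 ± 0.10 and with 4 of 5 sham libraries above every 2-VO library. On this scale the lowest library for miR-877 was 2-VO replicate 6 rather than replicate 3, which stood at 10.3. The groups of miR-877 also stayed apart with trimmed-mean (TMM) factors, median-of-ratios factors and quantile normalization, and those of miR-1224 were apart only after quantile normalization. Of the 474 miRNAs, 3 had groups without overlap in either direction as deposited and 6 scaled to the listed reads. With TMM factors there were 11, and with median-of-ratios factors or quantile normalization 9. The members were named with this contrast known, so nothing is read from their separation.

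Both mirtrons were lower in 2-VO by a like amount, so their ratio differed little between the groups. The level of miR-1224 over that of miR-877 was 7.76 ± 0.819 in 2-VO and 7.59 ± 0.743 in sham libraries (SD, n = 5), with ranges of 6.71 to 8.82 in 2-VO and 6.26 to 8.0 in sham libraries. The lowest ratio, 6.26, was that of sham replicate 5. After the group means were subtracted, Pearson's r of their log2 levels was 0.52 over the 10 libraries. The median r with 339 miRNAs was 0.54 for miR-877 and 0.39 for miR-1224. Without 2-VO replicate 3 the r between the mirtrons was 0.099, below the medians of 0.46 for miR-877 and 0.16 for miR-1224. On the scale of listed reads it was 0.30, above the medians of 0.12 and 0.11, and without 2-VO replicate 3 it was 0.41 there, above the medians of 0.15 and 0.17. How the 2 mirtrons stood to each other within the groups thus depended on the scale and on that library. All of these points share the library and its divisor, and they are given as a description.

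The spread of miR-877 between libraries of a group was small for its level. Its coefficient of variation was 9.20% in 2-VO and 5.73% in sham libraries, where counting error alone gives 10.3% in 2-VO and 9.17% in sham libraries. The within-group SD of its log2 level was 0.098. All of the 50 miRNAs nearest to it in level (5.39 to 11.7 RPM) had a larger SD, with a median of 0.24, and of all 474 miRNAs 4 had a smaller one. Its spread was thus below the counting error of its reads. The SE of 0.11 for its log2 fold change is wider because limma draws each spread towards that of miRNAs of like level. miR-877 was named with the contrast known, and a small spread within groups helps to keep them apart. Nothing is therefore read from its small spread or from the rank of that spread. miR-1224 was within the usual range, with an SD of 0.18 against a median of 0.20 for its 50 neighbours in level (38.5 to 95.9 RPM), and coefficients of variation of 14.5% in 2-VO and 7.88% in sham libraries against 3.71% in 2-VO and 3.33% in sham libraries from counting.

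**Figure D2:**
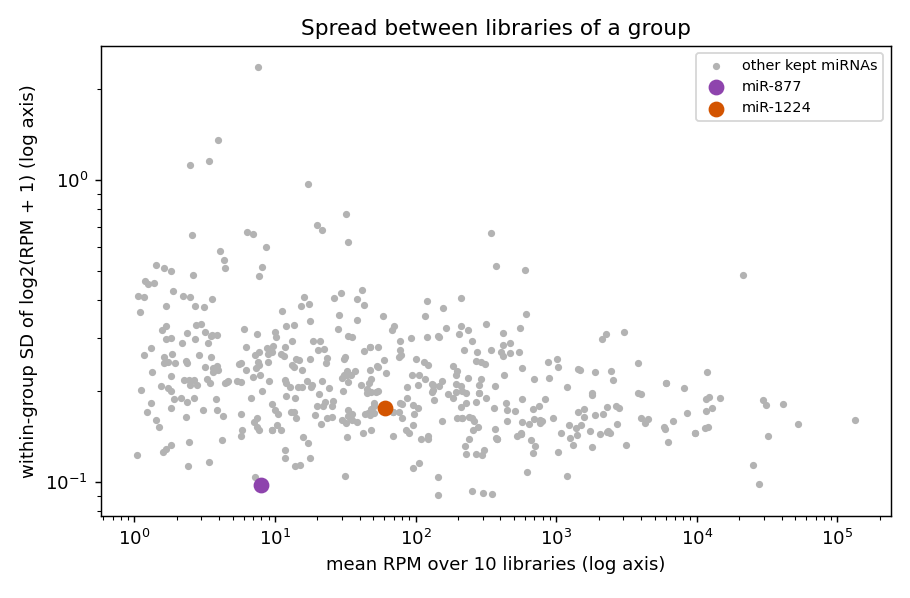
Within-group SD of log2(RPM + 1) against mean RPM over the 10 libraries for the 474 kept miRNAs, both axes logarithmic, with miR-877 and miR-1224 marked. miR-877 lies at the lower edge, with an SD of 0.098, and miR-1224 within the cloud at 0.18.

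Set among all miRNAs, 62.2% of the 474 had a log2 fold change below 0 as deposited and 49.4% scaled to the listed reads. The median log2 fold change was -0.051 as deposited and 0.00068 scaled. A lower log2 fold change than that of miR-877 was found for 17 miRNAs, and a lower one than that of miR-1224 for 15. No miRNA of the 474 (0%) had an adjusted p under 0.05 by limma with Benjamini-Hochberg adjustment, nor by voom. Without adjustment 24 (5.06%) were under 0.05 by limma, 20 of them (4.22%) lower in 2-VO, and 25 by voom.

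Other mirtrons were looked at beside the members. Of 6 names on the list, miR-702 and miR-3102, both described as mirtrons in mouse, had rows in the table. The other 4 (miR-1225, miR-1226, miR-1981 and miR-1982) were not analysed here. In RefSeq (GRCr8) the rat hairpin of miR-702 is 107 bases long, starts with GU and ends with GC, not AG. No hairpin of miR-3102 was found there, so its ends could not be checked. miR-702-3p stood at 25.4, 43.7, 44.1, 32.2 and 23.8 RPM in 2-VO replicates 3, 5, 6, 7 and 8, against 34.7, 40.7, 35.2, 32.3 and 39.1 RPM in sham replicates 1 to 5. The 2-VO libraries lay both above and below the sham range, and the log2 fold change was -0.14 ± 0.17 (SE; limma adjusted p = 0.93), with a 95% interval of -0.50 to 0.22. miR-3102 stood at 12.9, 13.7, 19.0, 13.7 and 12.8 RPM in the same order of 2-VO libraries, against 16.5, 19.9, 17.3, 14.3 and 14.4 RPM in sham libraries. Of its 2-VO libraries, 4 lay below the lowest sham library and replicate 6 among the highest, for a log2 fold change of -0.18 ± 0.14 (limma adjusted p = 0.82, 95% interval -0.48 to 0.11). The 5p arm of miR-702 was listed at 0 in every library. Neither passed, and a test of the difference between them and the 2 members was not possible with members named for this contrast.

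Precursors that skip Drosha by other routes were described next. The pre-miRNAs of miR-320 and miR-484 carry the cap of the transcript's own start, and miR-664 comes from a small nucleolar RNA. Of the 6 rows, 4 passed the filter, and miR-320-5p and miR-664-1-5p were listed at 0 in every library. All 4 had a log2 fold change below 0 as deposited, with a median of -0.12, where 62.2% of all 474 were below 0. Scaled to the listed reads 2 of 4 were below 0, against 49.4% of all 474. miR-320-3p averaged 233 ± 39.9 RPM in 2-VO and 237 ± 32.3 RPM in sham libraries (SD, n = 5), with a log2 fold change of -0.029 ± 0.13 (limma adjusted p = 0.97). miR-484 averaged 13.8 ± 1.38 RPM in 2-VO and 14.1 ± 0.900 RPM in sham libraries (-0.034 ± 0.11, limma adjusted p = 0.96). Both values were above 0 when scaled to the listed reads, where their log2 fold changes were 0.029 and 0.022. For miR-664 the 3p arm averaged 273 ± 56.8 RPM in 2-VO and 309 ± 29.3 RPM in sham libraries (log2 fold change -0.20 ± 0.14, limma adjusted p = 0.82), and miR-664-2-5p 23.2 ± 3.36 RPM in 2-VO and 27.4 ± 2.79 RPM in sham libraries (-0.23 ± 0.12, adjusted p = 0.76). None of the 4 passed.

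Intronic miRNAs that Drosha does cut share the host gene arrangement of the mirtrons, but their hairpin is cut from a longer intron. Of the 85 rows of such miRNAs 71 passed the filter. Of the 71, 34 were lower and 37 higher in 2-VO, where 62.2% of all 474 were lower. Their median log2 fold change was 0.0015, against -0.051 over all 474. Scaled to the listed reads 25 of the 71 were lower, against 49.4% of all 474. Of the 71, 0 passed with limma, and 3 had an unadjusted p under 0.05. These were the 3 lowest, miR-676 (log2 fold change -0.39 ± 0.13), miR-149-5p (-0.30 ± 0.12) and miR-935 (-0.29 ± 0.12), with limma adjusted p of 0.64, 0.76 and 0.76. The highest were miR-153-5p (0.34), miR-32-3p (0.26) and miR-33-3p (0.18), each under 3 RPM on average. The most abundant, the neuronal miR-128-3p from introns of R3hdm1 and Arpp21, averaged 50299 ± 6612 RPM in 2-VO and 54750 ± 3993 RPM in sham libraries (-0.13 ± 0.099, limma adjusted p = 0.84). Next came miR-26a-5p (-0.035, or 0.023 scaled to the listed reads) and miR-218a-5p (0.0016). These intronic rows had values on both sides of 0, and some are arms of the same hairpin. The part of intronic origin or of the host transcripts in the levels of the mirtrons was not tested.

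**Figure D3:**
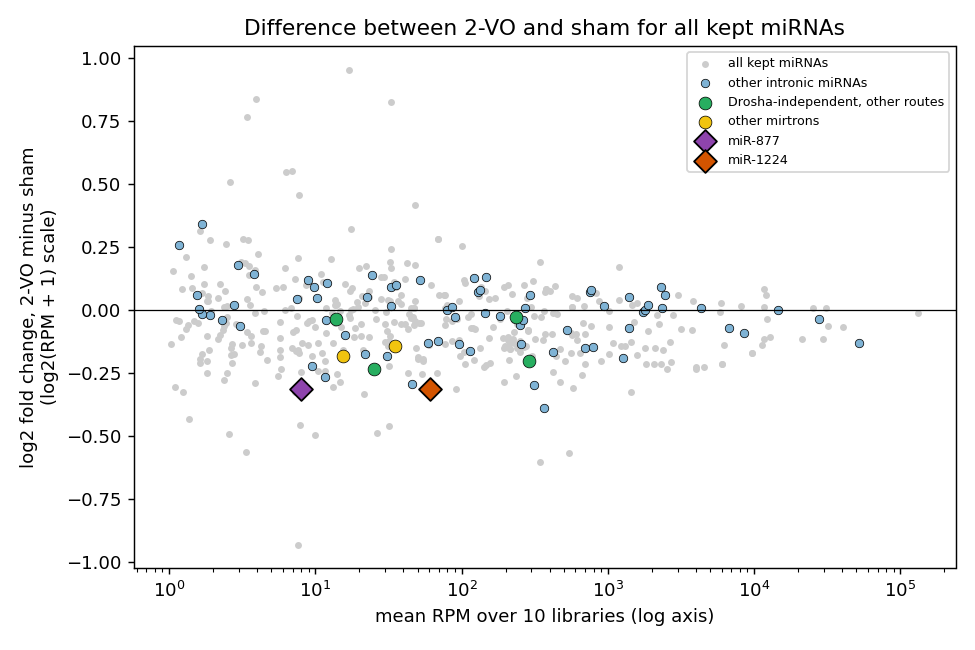
Log2 fold change, 2-VO minus sham, on the log2(RPM + 1) scale against mean RPM (log axis) for the 474 kept miRNAs, with the 2 members as diamonds, other mirtrons in yellow, other Drosha-independent miRNAs in green and other intronic miRNAs in blue. The members lie at -0.31 each, the other mirtrons at -0.14 and -0.18, and the intronic miRNAs spread from -0.39 to 0.34.

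A feature that the 2 mirtrons share and their names did not use is a mature strand rich in G. G makes up 55.0% of miR-877 (11 of 20 bases) and 61.9% of miR-1224 (13 of 21), against a median of 23.8% over 690 rows with a sequence, of which 7 and 2 were richer in G. The 5′ arm of miR-702, 57.1% G, is the one listed at 0. Besides the members, 6 miRNAs with at least 50% G passed the filter. They are shown, from RefSeq (GRCr8), for their G bases, in capitals, and were picked out by this share after first results had been seen.
miR-296-3p: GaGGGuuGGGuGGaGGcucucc
miR-760-3p: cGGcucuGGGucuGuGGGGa
miR-770-3p: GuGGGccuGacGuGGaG
miR-92b-5p: aGGGacGGGacGcGGuGcaGuGuu
miR-666-5p: aGcGGGcacGGcuGuGaGaG
miR-1188-5p: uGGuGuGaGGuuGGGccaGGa
Without the members, 6 of these 6 had lower levels in 2-VO on both scales. Of all 474 miRNAs, 62.2% were lower as deposited and 49.4% scaled to the listed reads. The median log2 fold change of the 6 was -0.20 as deposited and -0.15 scaled to the listed reads. The choice by G content follows a trait of members named with this contrast known, so nothing is read from this count.

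Of these 6, miR-666-5p averaged 6.32 ± 0.367 RPM in 2-VO and 8.20 ± 0.824 RPM in sham libraries (SD, n = 5; log2 fold change -0.33 ± 0.11, limma adjusted p = 0.76). miR-760-3p averaged 98.1 ± 7.0 RPM in 2-VO and 114 ± 10.2 RPM in sham libraries (-0.22 ± 0.10, limma adjusted p = 0.76). The groups of miR-666-5p did not overlap on either scale, and those of miR-760-3p did not on the scale of listed reads. As deposited, the 3 miRNAs lower in 2-VO without overlap were miR-877, miR-666-5p and miR-27a-5p, of which miR-27a-5p has 36.4% G and had the lowest log2 fold change of the 3 (-0.49 ± 0.13, limma adjusted p = 0.44). On the scale of listed reads they were miR-877, miR-666-5p and miR-760-3p (0.633% of 474), and 3 others (0.633%) were higher in 2-VO without overlap. The remaining 4 of the 6 had log2 fold changes of -0.14 to -0.25.

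Taken row by row, the relation to G content over all other miRNAs was not a straight line. Some rows of unlike sequence had nearly the same levels. miR-3596a (0% G) and let-7a-5p (36.4% G) averaged 6079 RPM each, and miR-3574 (22.7% G) and miR-210-3p (40.9% G) 69.2 RPM each. Such rows may hold the same reads. A range can then count reads more than once, or under a G content that is not theirs. As deposited, where 62.2% of all 474 were below 0, 24 of 29 miRNAs with 40% to 50% G were lower in 2-VO, with a median of -0.11 for the log2 fold change. So were 63 of 91 with 30% to 40% (-0.055), 86 of 159 with 20% to 30% (-0.020), 57 of 111 with 10% to 20% (-0.0096) and 30 of 36 with under 10% (-0.14). Scaled to the listed reads, where 49.4% of all were below 0, 21 of 29 with 40% to 50% G were lower (-0.056) and 48 of 91 with 30% to 40% (-0.0056). On that scale the majority was higher in 2-VO at 20% to 30% G, with 64 of 159 lower (0.037), and at 10% to 20% G, with 42 of 111 lower (0.048), while 28 of 36 with under 10% were lower (-0.097). Over the 432 miRNAs Pearson's r between G content and log2 fold change was -0.070 and Spearman's rho -0.10, given as a description across miRNAs, which share libraries and are not replicates.

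By library, the median deviation of the 6 miRNAs with at least 50% G from their own mean over the 10 libraries, less the same median over all 432, ran from -0.18 to -0.031 in 2-VO and from 0.042 to 0.17 in sham libraries, without overlap. The 6 were picked out after first results had been seen and include miR-666-5p, whose own groups did not overlap. How often other sets of 6 miRNAs separate was not tested. For the 35 with at least 40% G it ran from -0.11 to 0.022 in 2-VO and from -0.024 to 0.085 in sham libraries, with overlap. Set against the 35, the log2 fold change was -0.18 for miR-877 and -0.18 for miR-1224, and against the 6 it was -0.085 and -0.086, with groups that overlapped for both mirtrons each time. All of the 6 were lower in 2-VO, with a median of -0.20, and so was the median of the 29 others, so scaling to either set moves both mirtrons towards 0 by its construction and tests nothing. The part of base composition in the levels of the 2 mirtrons was not tested.

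**Figure D4:**
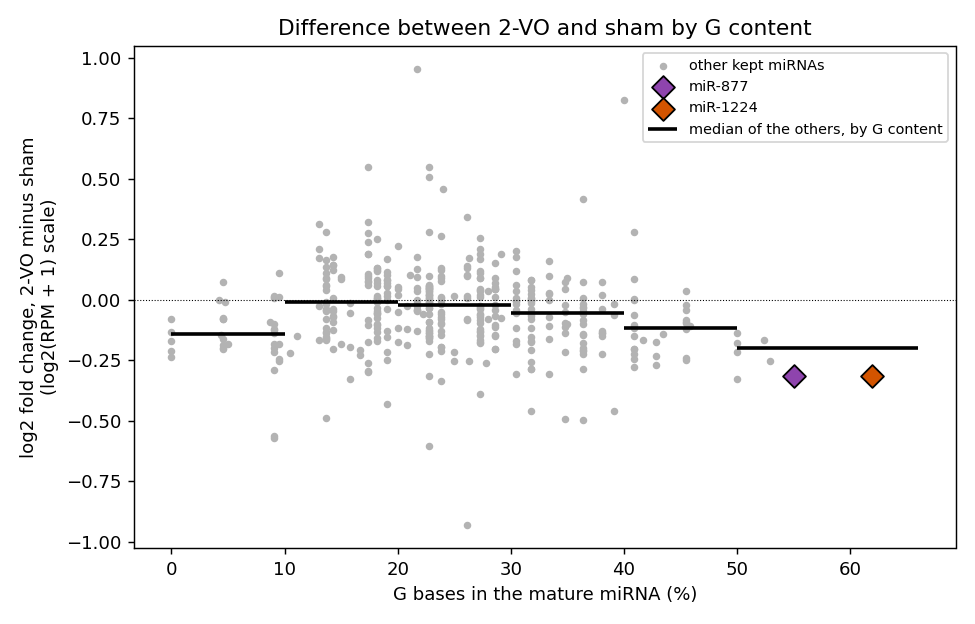
Log2 fold change, 2-VO minus sham, on the log2(RPM + 1) scale against the share of G in the mature miRNA for the kept miRNAs with a RefSeq sequence, with medians of the miRNAs other than the members as black lines for each 10-point range and for 50% and above. The medians are -0.14 below 10% G, -0.0096 at 10% to 20% and -0.20 from 50%, and both members lie at -0.31. Rows that may hold the same reads are counted separately.

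The miRNAs whose levels went most like those of each mirtron within the groups were ranked by Pearson's r of log2(RPM + 1) after the group means were subtracted, over 10 libraries and among 339 miRNAs. For miR-877 they were miR-152-3p (r = 0.93), miR-1b (0.92), miR-872-5p (0.91), miR-598-3p (0.91) and let-7f-2-3p (0.90), against a median of 0.54. The spread of miR-877 within the groups was below its counting error, so these highest values are a description only. Of these 5, only miR-872-5p was also among the first 5 on the scale of listed reads. With levels set against the listed reads, where the median r was 0.12, miR-872-5p came first (0.93), followed by miR-345-5p (0.85) and miR-150-5p (0.83), and it was also first without 2-VO replicate 3 on both scales. For miR-1224 they were miR-324-3p (0.94), miR-708-3p (0.90), miR-323-5p (0.89), miR-181c-3p (0.88) and miR-136-3p (0.87), against a median of 0.39. On the scale of listed reads miR-324-3p was again first (0.92). Without 2-VO replicate 3 the activity-regulated miR-132-3p came first on both scales (0.90 on RPM, 0.95 on listed reads), with miR-324-3p and miR-323-5p still among the first 5. No miRNA was among the first 5 of both mirtrons in these rankings.

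By mean level, the neighbours of miR-877 were miR-34c-3p (8.11 RPM) and miR-1843b-3p (8.03 RPM) above and miR-298-5p (7.85 RPM) and miR-501-3p (7.75 RPM) below. Those of miR-1224 were miR-3099 (68.4 RPM) and miR-299a-3p (61.6 RPM) above and miR-1843a-3p (59.8 RPM) and miR-335 (58.5 RPM) below. For miR-877 the gaps to all 4 neighbours are smaller than its SD within either group. The same holds for miR-1224 and its neighbours other than miR-3099. The gap to miR-3099 is larger than the SD of miR-1224 in sham libraries and smaller than that in 2-VO libraries. All were read in the same libraries, and whether the order holds within libraries was not tested. No row lay within 0.05 on the log2 scale of either mirtron in every library (the nearest were miR-339-3p, 0.20 apart at most, and miR-409a-3p, 0.38).

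Over all settings run, the log2 fold changes of both mirtrons stayed below 0. The values scaled to G-rich miRNAs, added after seeing the data, lie nearer to 0 by construction, since those miRNAs were themselves lower in 2-VO.

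**Figure D5:**
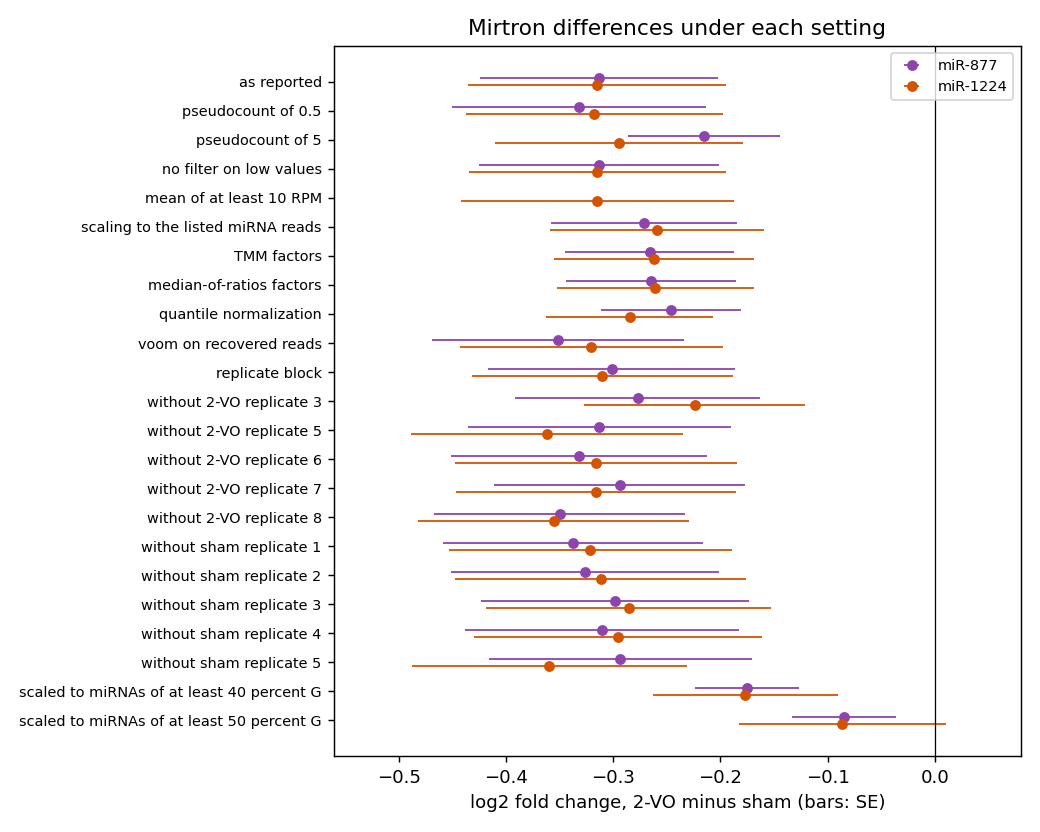
Log2 fold change, 2-VO minus sham, of miR-877 and miR-1224 under each setting, with bars for the SE, from the values as reported at the top to the scaling on G-rich miRNAs at the bottom. All values lie below 0, from -0.36 to -0.085.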

How the data were processed

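The deposited table gives RPM for 765 mature miRNAs, made by the authors from reads of NEBNext small RNA libraries. The tools named in the submitters' processing notes are BWA and bcl2fastq, and the build is rn6. Which annotation was used, how multiply matching reads were handled and what the divisor counts are not stated there. Groups come from the labels' treatment entry, since the protocol field names occlusion for all samples. All 4962 values above 0 were whole reads within 0.01 at 1 divisor per library. The smallest was 10 reads, so fewer appear as 0 (a limit of 0.722 to 0.767 RPM).

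Computed here were log2(RPM + 1) after a filter at a mean of 1 RPM, which kept 474 miRNAs, and limma 3.58.1 in R 4.3.3 (trend, two-sided, no covariate, Benjamini-Hochberg, threshold 0.05). The limma fit was run on simulated data only with differences larger than any found here. Its power for differences as small as those of the mirtrons was not tested. A fold change on the log2(RPM + 1) scale understates that of low miRNAs. Sequences are from RefSeq (GRCr8), and folding from RNAfold 2.7.2. The members and lists were chosen with earlier results of these data known. The text names both members, all listed mirtrons and Drosha-independent miRNAs, the extreme and most abundant intronic ones, the 5 most alike and the level neighbours; G-rich miRNAs were added later. Alternatives changed the pseudocount, filter, scaling, model and block, or left out each library. The planned count test was replaced by voom on the recovered reads, because values under 10 reads are missing.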

Additional observations from a re-analysis of the deposited data

Results flagged for a closer look

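Among the named miRNAs, 1 of 70 groups of 5 libraries held a value whose gap to the nearest library was above 0.71 of the group's range, where chance gives about 3.5. miR-3102 stood at 19.0 RPM in 2-VO replicate 6, against 12.8 to 13.7 RPM in the other 2-VO libraries.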

How the results depend on the processing

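The log2 fold changes of both mirtrons stayed below 0 in all settings run. Leaving out 1 library in turn gave -0.35 to -0.28 for miR-877 and -0.36 to -0.22 for miR-1224. With a pseudocount of 5 that of miR-877 was -0.22. Scaled to other miRNAs of at least 40% G, a setting added after seeing the data, it was -0.18, and scaled to those of at least 50% G it was -0.085, with -0.086 for miR-1224. Both sets were themselves lower in 2-VO, so these shifts towards 0 follow from the choice. No other setting moved either value by more than 1 SD between libraries. With the replicate number as a block the values were -0.30 and -0.31. The groups share only numbers 3 and 5, and deviations of same-numbered libraries correlated at -0.058 and -0.18, so the numbers were not taken as pairs. The count of miRNAs past the adjusted threshold was 0 in every setting, with 12 to 42 at an unadjusted p under 0.05. The count of miRNAs whose groups did not overlap in either direction, 3 as reported, was 5 without a filter, 0 at a mean of at least 10 RPM, 6 scaled to the listed reads, 11 with TMM factors, and 9 with median-of-ratios factors or quantile normalization. It was 4 to 14 with 1 library left out, where fewer libraries make separation easier. miR-877 falls below the 10 RPM filter and has no value there, and the planned negative binomial count test was not run. With 85 to 123 reads a library, counting error limits what can be seen for miR-877.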
